A study of Abies pinsapo with 12 samples.

Results

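Transcripts ap_2740 and ap_15570, annotated as xyloglucan endotransglucosylases, and ap_2687, annotated as an expansin, were followed through the needles of 12 Spanish fir trees (*Abies pinsapo*). They are 3 of the 76481 assembled transcripts in the deposited table and 3 of the 23352 that passed the filter of at least 2 CPM (counts per 1e6 counts of the library) in at least 2 libraries. They were chosen because the study names them as cell wall transcripts with more counts in bluish than in green trees. The bluish/green contrast of these same libraries therefore chose them, and their colour difference, with any call made on it, is given only as a description. Their co-variation among trees of the same colour was not itself a criterion of that choice and is what was tested. It was not wholly free of the choice, because the same trees enter both.

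The needle libraries came from 6 bluish trees and 6 green trees, each tree giving 1 library, and all were adult trees growing in the field in Sierra de las Nieves and sampled in spring. The trees were picked by needle colour, no treatment was given, and needles still developing were left out, per the labels. The paper lists bluish and green trees at the same age, and the labels give no genotype or relatedness of the trees. In whole needles, fewer cells of a type and less RNA per cell cannot be told apart.

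The wall of a growing plant cell is a network of cellulose microfibrils tied together by xyloglucan and pectin, and it has to yield for the cell to enlarge. Xyloglucan endotransglucosylases (XTHs) cut a xyloglucan chain and join its end to another chain, and expansins loosen the bonds between cellulose and other wall polymers without cutting them. Both are large gene families, known from other plants for their part in expanding leaves, stems and roots and in the wall of vascular cells.

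The libraries held between 64978939 and 91973481 counts, and the tested transcripts took up 98.7% to 99.3% of them. Of all values from 1 to 29 counts 76.0% were even, so a read pair was taken as 2 counts, and a count of 0 allowed up to 3 read pairs, which was 0.0695 to 0.0908 CPM depending on the library. Of the 12 libraries, the count was even in 12 for ap_2740, 8 for ap_2687 and 3 for ap_15570. Intervals over read pairs are therefore less secure for ap_15570, whose counts do not bear out this step. Levels are in CPM scaled with TMM factors, and a positive logFC means more in bluish trees. Conifer RuBisCO small subunits ap_2598 and ap_81338, which mark green tissue, were counted in every library, with sums of 16.9 to 60.2 CPM in bluish trees and 13.3 to 31.9 CPM in green trees. The paper reports another RuBisCO small subunit transcript as lower in bluish trees, and it is not in these sums.

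The XTH ap_2740 had few counts, and most of them in few trees. In bluish trees its lowest, median and highest levels were 0.231, 0.453 and 3.00 CPM, and in green trees they were 0, 0.0583 and 2.19 CPM. Bluish trees 2 and 6 (3.00 and 1.55 CPM) and green tree 1 (2.19 CPM) stood above the other 9 trees, which lay between 0 and 0.634 CPM. The groups overlapped, although green trees 2, 3, 4 and 5 lay below every bluish tree. Green tree 3 had 0 counts, and the level in green tree 1 rested on 170 counts, or 1.77 to 2.71 CPM by the 95% Wilson interval over read pairs, which covers counting error only. Bluish tree 2 and green tree 1 were also the only libraries that brought ap_2740 through the filter.

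The XTH ap_15570 had its high levels partly in other trees. Its lowest, median and highest levels were 1.18, 1.89 and 7.50 CPM in bluish trees, and 0.405, 0.689 and 5.60 CPM in green trees. The highest bluish trees were tree 5 (7.50 CPM) and tree 1 (5.03 CPM), and the highest green tree was tree 1 (5.60 CPM), as for ap_2740. Bluish trees 2 and 6, the highest of their colour for ap_2740, held 1.37 and 1.59 CPM of ap_15570, which was below the median of their colour. Green trees 2, 3, 5 and 6 lay below every bluish tree, and green tree 4 (1.41 CPM) lay above bluish trees 2 and 3. At least 2 CPM was reached in 4 libraries, those of bluish trees 1, 4 and 5 and green tree 1.

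As for ap_2740, the expansin ap_2687 was highest in bluish trees 2 and 6 and green tree 1. Its lowest, median and highest levels were 0.471, 1.08 and 6.25 CPM in bluish trees, and 0.192, 0.675 and 3.12 CPM in green trees. Bluish tree 2 (6.25 CPM), bluish tree 6 (3.13 CPM) and green tree 1 (3.12 CPM) were the only libraries with at least 2 CPM, and the other 9 trees reached 1.35 CPM at most. The colours overlapped widely for the expansin, with 4 of 6 bluish trees above the median of green trees, against 6 of 6 for each XTH.

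**Figure D1:**
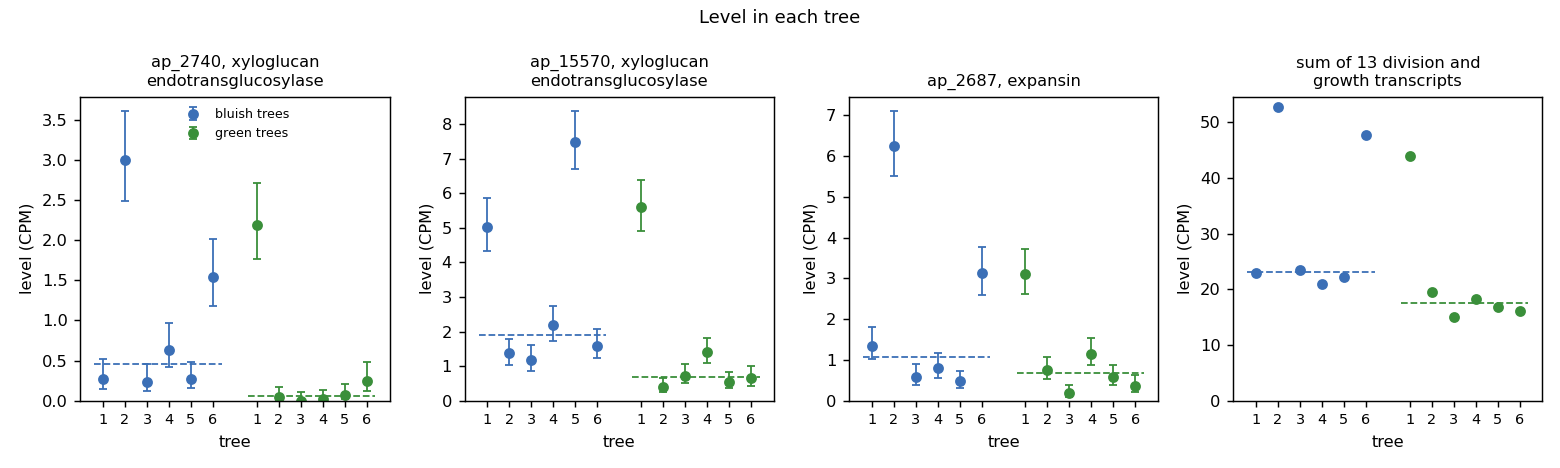
Level in CPM of each tree (horizontal axis, trees 1 to 6, bluish left of green) for the 3 wall transcripts, with bars giving the 95% Wilson interval of the read pairs, and the summed level of 13 division and growth transcripts; dashed lines are the medians of the 6 trees. Bluish trees 2 and 6 and green tree 1 stand out for ap_2740, ap_2687 and the growth sum, and bluish trees 1 and 5 and green tree 1 for ap_15570.

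Trees of the same colour differed more in these transcripts than in most others. The coefficient of variation of ap_2740 was 111% over bluish trees and 202% over green trees, that of ap_15570 was 81.6% and 129%, and that of the expansin was 108% and 105%. The median over all tested transcripts was 16.5% in bluish and 17.5% in green trees, and each of the 6 values lay above those of 97.6% to 99.7% of tested transcripts. A transcript that passes the filter through only 2 to 4 libraries has a wide spread by construction, so these ranks are a description.

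Between the colours, the fitted logFC was 1.21 (SE 1.18) for ap_2740, 1.01 (SE 0.696) for ap_15570 and 1.03 (SE 0.755) for the expansin, over 6 trees each. With FDR under 0.05 (Benjamini-Hochberg) and |logFC| over 1 in the quasi-likelihood test of edgeR, 0 of the 3 were called DE, where 1 of all 23352 transcripts was (0.00428%), higher in bluish trees. Unadjusted p was under 0.05 for 0 of the 3 and for 1478 of the 23352. DESeq2 also called 0 of the 3, against 0.0942% of all transcripts in either direction and 0.03% higher in bluish trees. The exact test of edgeR, when given a common dispersion, called 3 of 3 higher in bluish trees, against 1.94% of all transcripts in either direction and 0.715% in that direction. These counts are from the contrast that chose the transcripts and are given only as a description.

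The size of each logFC moved with single trees. Without green tree 1, the highest green tree for each of the 3, logFC was 3.70 for ap_2740, 2.07 for ap_15570 and 1.77 for the expansin. Without bluish tree 2 it was 0.46 for ap_2740 and 0.30 for the expansin, while that of ap_15570 was 1.17. Without bluish tree 5 the logFC of ap_15570 was 0.55.

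Whether the transcripts rose and fell together was tested after the mean of each colour had been subtracted from log2 CPM. The XTH ap_2740 and the expansin ap_2687 varied together, with r = 0.77 over 12 trees (exact permutation within colours, two-sided, p = 0.00605, Benjamini-Hochberg adjusted over 3 pairs p = 0.0182). Spearman's rho was 0.57 (exact permutation, adjusted p = 0.233), and the 2 transcripts lay on the same side of their colour means in 7 of 12 trees. The filter had let ap_2740 through on bluish tree 2 and green tree 1 and the expansin on these and bluish tree 6, so transcripts high in shared trees were more likely to be tested, and the p takes no account of that. Bluish tree 2 also raised the colour difference that chose both. Without it logFC was 0.46 for ap_2740 and 0.30 for the expansin, and the p takes no account of that either. The call was lost without bluish tree 2 (r = 0.71, exact permutation, adjusted p = 0.0793), without green tree 1 (r = 0.66, adjusted p = 0.145, exact permutation) or without green tree 3 (r = 0.71, exact permutation, adjusted p = 0.0522). Without the 2 trees farthest from the median of ap_2740, bluish tree 2 and green tree 3, r was 0.62 over the other 10 trees (exact permutation, adjusted p = 0.223), so the call did not hold without them, while r stayed positive.

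For the XTH ap_15570 neither pair passed the threshold. With ap_2740 it had r = 0.30 (rho 0.029) and with the expansin r = 0.20 (rho 0.029), both with adjusted p = 0.551 by the exact permutation test. It lay on the same side of its colour mean as ap_2740 in 5 of 12 trees and as the expansin in 8 of 12 trees. Without green tree 1 these values were r = -0.46 with ap_2740 and r = -0.29 with the expansin, so that their sign turned with that tree.

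**Figure D2:**
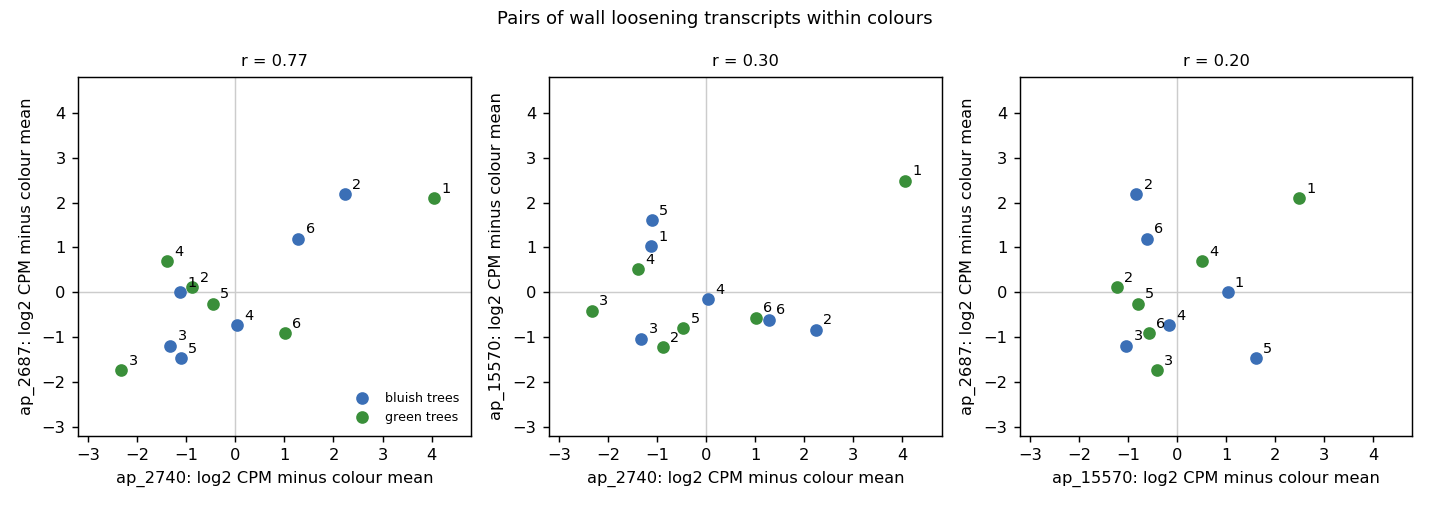
Log2 CPM of each pair of transcripts after subtracting the mean of each colour, with 1 point per tree, numbered, in blue for bluish and green for green trees. Bluish trees 2 and 6 and green tree 1 lie at the upper right for ap_2740 against ap_2687 (r = 0.77), whereas for the pairs with ap_15570 (r = 0.30 and 0.20) green tree 1 lies at the upper right and bluish tree 5 is high for ap_15570 and low for the other transcript.

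Each colour was also taken on its own. In bluish trees ap_2740 and the expansin had r = 0.91 (exact permutation p = 0.0139, adjusted over 6 values p = 0.0833), while ap_15570 had r = -0.53 with ap_2740 (adjusted p = 0.300, exact permutation) and r = -0.46 with the expansin (adjusted p = 0.344, exact permutation). In green trees all 3 pairs were positive, with r = 0.71 for ap_2740 and the expansin, 0.73 for ap_2740 and ap_15570 and 0.77 for ap_15570 and the expansin (exact permutation, adjusted p = 0.185 for each). None of the 6 passed the threshold, and whether the colours differed was not tested. Over 6 trees this exact permutation test has 720 orders, so p can be as small as 0.00278 before adjustment, and a call was possible. Without green tree 1 the values in green trees were 0.11, -0.29 and 0.25 in that order. Without bluish trees 2 and 6, r for ap_2740 and the expansin was 0.16 over the other 4 bluish trees. Spearman's rho for this pair over all 6 bluish trees was 0.71 (exact permutation, adjusted p = 0.746). With the colour difference left in, r over the 12 trees was 0.79 for ap_2740 and the expansin, 0.49 for the 2 XTHs and 0.33 for ap_15570 and the expansin, which are given without a test because they hold the difference that chose the transcripts.

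Several transcripts of dividing and growing tissue were high in the same trees as ap_2740 and the expansin. A list of 13 such transcripts (tubulins, a kinesin, cyclins, histones, gibberellin regulated and auxin-induced proteins) summed to 52.7 and 47.7 CPM in bluish trees 2 and 6, and to 43.9 CPM in green tree 1, against 15.0 to 23.5 CPM in the other 9 trees. Over colours the sums were 20.9 to 52.7 CPM in bluish trees and 15.0 to 43.9 CPM in green trees, and all 13 transcripts had counts in all 12 libraries. In 5 of the 13 (38.5%) the 3 highest of the 12 trees were bluish trees 2 and 6 and green tree 1, as for ap_2740 and the expansin, against 363 of 23352 tested transcripts (1.55%). The list was chosen with values of these data in view, from transcripts that the study's table ranks high for the colour contrast, so these shares are only a description. Other lists from that table held this set of trees in 1 of 5 XTHs, 1 of 5 expansins and 3 of 19 other wall proteins. The part of the growth transcripts in the co-variation was not tested.

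Of these 13, 6 had a colour-centred r of at least 0.7 with ap_2740, and the same 6 reached it with the expansin. With ap_15570 0 of the 13 did. Over all tested transcripts these shares were 1.51%, 1.74% and 0.518% for ap_2740, the expansin and ap_15570. The closest of the 13 was histone H2B ap_5279, a packaging protein of DNA, with r = 0.87 with ap_2740 and 0.94 with the expansin. It held 11.4 and 10.5 CPM in bluish trees 2 and 6, with 9.38 CPM in green tree 1, and between 0.673 and 2.31 CPM in the other 9 trees. Cyclin ap_5127, of the family that drives the cell cycle, stood at 6.29, 6.04 and 6.38 CPM in those trees and at 0.714 to 2.61 CPM elsewhere. The gibberellin regulated protein ap_2692 stood at 6.96, 4.71 and 9.89 CPM against 0.0275 to 2.75 CPM elsewhere. Of the 13, 9 had a positive r with ap_2740 and 9 with the expansin, and the list also held transcripts that ran the other way. The kinesin ap_16127 had r = -0.058 with ap_2740 and -0.44 with the expansin, and was highest in bluish trees 5, 4 and 1. Its r with ap_15570 was 0.57, the highest of the list. The auxin-induced proteins ap_13395 and ap_66773 had r = -0.58 and -0.43 with ap_2740 and -0.75 and -0.31 with the expansin. Another gibberellin regulated protein, ap_19144, had r = -0.12 with ap_2740 and -0.36 with the expansin. Cyclin ap_75692 had r = 0.36 and 0.46 in that order. For histones H4 ap_3700 and ap_385, r was 0.12 and 0.27 with ap_2740 and 0.59 and 0.43 with the expansin.

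Over all transcripts, the libraries of these 3 trees were compared with the other 9. Bluish tree 2 had the highest level of its colour for 17.2% of the tested transcripts, bluish tree 6 for 21.6% and green tree 1 for 17.3%, and over the other 9 trees this share was 13.8% to 19.3%. Fewer assembled transcripts had a count in them than in most, with 48512 in bluish tree 2, 50361 in bluish tree 6 and 50058 in green tree 1, against 49912 in bluish tree 1 and 52173 to 62658 in the other 8 trees. Their TMM factors were 0.990, 1.02 and 0.982, within the range of 0.947 to 1.04 over the 12 libraries. The RuBisCO sum of bluish tree 2 was the highest of all trees, while those of bluish tree 6 (21.9 CPM) and green tree 1 (20.3 CPM) lay within the range of the others.

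Among the 23351 other tested transcripts the expansin stood at place 160 in likeness to ap_2740 by colour-centred r, and ap_2740 at place 200 in likeness to the expansin. XTH ap_15570 stood at place 5245 for ap_2740 and 7783 for the expansin. The median r over all tested transcripts was 0.017 with ap_2740, 0.0011 with ap_15570 and 0.023 with the expansin. Correlations over other transcripts share the 12 libraries and their scaling, and are given as a description.

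The relatives of the 3 transcripts were taken from the annotated part of the study's table, which held 5 further XTHs and 5 further expansins, all of them tested. That part is ranked by the colour contrast, so their direction is not independent evidence. Of the 10, 8 had a positive and 2 a negative logFC, 0 were called DE (0.00428% of all transcripts were, so this count says nothing about them), and the median logFC was 0.66, against -0.0038 over all tested transcripts, of which 49.1% were positive. With the expansin ap_2687, 3 of the 10 had r of at least 0.7, with ap_2740 2 of the 10 and with ap_15570 0 of the 10.

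XTH ap_2828 followed ap_2740 and the expansin most closely within its family. Its lowest, median and highest levels were 0.346, 2.35 and 12.04 CPM in bluish trees and 0.0275, 0.340 and 13.1 CPM in green trees. Bluish trees 2 and 6 held 12.04 and 8.73 CPM and green tree 1 held 13.1 CPM, whereas the next green tree held 0.680 CPM. Its r was 0.85 with ap_2740, 0.94 with the expansin (place 12 of 23351) and 0.39 with ap_15570. The logFC of ap_2828 was 0.84 (SE 1.26).

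The expansin ap_34918 was the transcript most like ap_2687 of all, with r = 0.96. It held 3.08 and 2.46 CPM in bluish trees 2 and 6, with 2.43 CPM in green tree 1, and 0.137 to 0.983 CPM in the other 9 trees. The log2 ratio of ap_34918 to ap_2687 had an SD of 0.51 over bluish trees and 0.17 over green trees. Near-identical members of a family can share reads in an assembly made without a genome, and how the counting split such reads is not given in the sources used here, so the likeness of transcripts within a family is uncertain to that extent.

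Other relatives took other courses. XTHs ap_2680 and ap_2913 were at 53.3 to 111 CPM and 22.9 to 54.8 CPM in bluish trees, and at 16.8 to 72.5 CPM and 6.14 to 40.2 CPM in green trees, and their r with each of the 3 lay between -0.32 and 0.35. XTH ap_11566 and expansin ap_6556 ran against ap_2740 (r = -0.47 and -0.53) and against the expansin ap_2687 (r = -0.50 and -0.41). Expansin ap_2889 had r = 0.73 with ap_2687 and 0.40 with ap_2740. Expansins ap_7521 and ap_85037 were the exceptions in direction. Expansin ap_7521 had a logFC of -0.70 (SE 0.577) with its highest level in green tree 1 (8.87 CPM), and its r was 0.69 with ap_2740 and 0.62 with ap_2687. The logFC of ap_85037 was -0.66 (SE 0.602). XTH ap_4324 had r = 0.38 with ap_2740 and -0.42 with ap_15570. The transcript ap_8387, which the study lists under the same cell wall terms as the 2 XTHs, had a logFC of 1.07 (SE 0.577), r = 0.61 with ap_2740 and r = -0.39 with ap_15570.

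**Figure D3:**
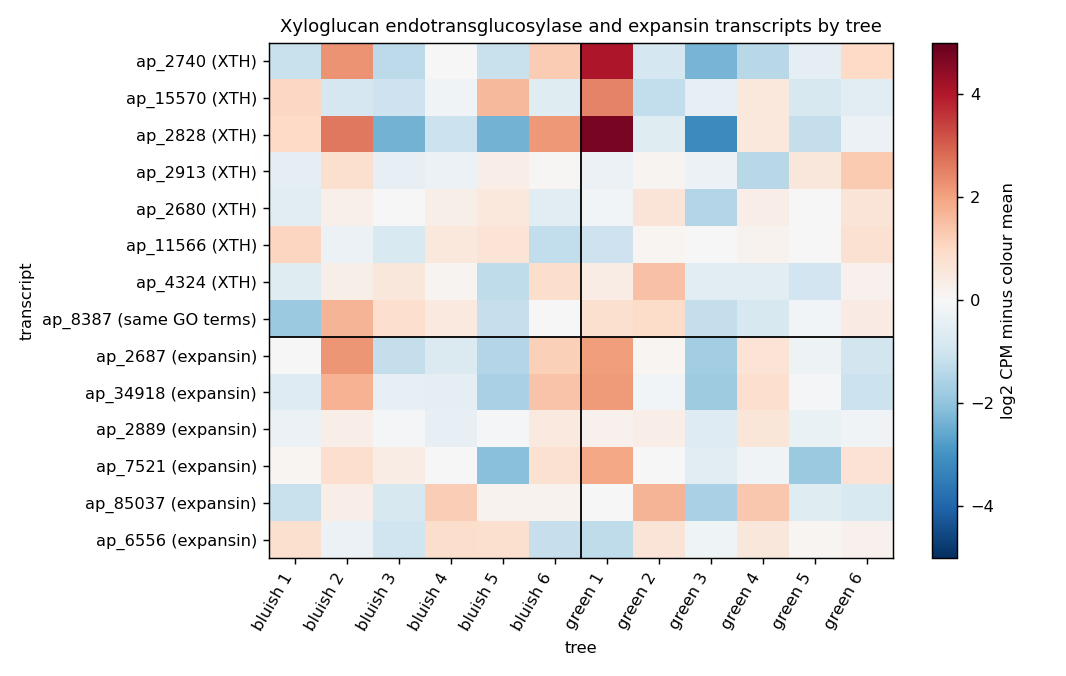
Log2 CPM minus the colour mean for the 7 XTHs, ap_8387 and the 6 expansins (vertical axis) in each tree (horizontal axis, bluish left of green), red above and blue below the colour mean. Bluish trees 2 and 6 and green tree 1 are the reddest of their colour for ap_2740, ap_2828, ap_2687 and ap_34918. For ap_15570 these are bluish trees 1 and 5 and green tree 1. Paler red is also found elsewhere, such as green tree 6 for ap_2740 and bluish tree 1 for ap_2828. Green tree 4 is paler red for ap_15570, ap_2828, ap_2687 and ap_34918.

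Each transcript was also set beside the 3 tested transcripts with a mean of at least 2 CPM whose pattern was most like its own. For ap_2740 these were ap_6176 (r = 0.94), ap_5609 (r = 0.93) and ap_15044 (r = 0.92). The last is annotated as a metallothionein-like protein, a small metal-binding protein, and held 45.2 and 56.0 CPM in bluish trees 2 and 6 and 58.3 CPM in green tree 1, against 11.7 to 22.8 CPM in the other bluish trees and 5.75 to 32.2 CPM in the other green trees. Transcripts ap_6176 and ap_5609 varied over a narrower range, with 5.56 to 10.95 CPM and 1.73 to 4.85 CPM in bluish trees, and 3.91 to 8.91 CPM and 1.64 to 4.59 CPM in green trees.

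For the expansin ap_2687 they were ap_2927 (r = 0.96), ap_70278 (r = 0.96) and ap_10390 (r = 0.95). Both ap_2927 and ap_70278 are annotated as glucan endo-1,3-beta-D-glucosidases, enzymes that cut the callose type of glucan. Transcript ap_2927 held 10.03 and 8.53 CPM in bluish trees 2 and 6 and 10.7 CPM in green tree 1, and 0.508 to 2.37 CPM in the other 9 trees. Levels of ap_70278 were 10.5, 6.65 and 9.79 CPM in those 3 trees and 0.424 to 2.01 CPM in the others. Their r with ap_15570 was 0.24 and 0.26.

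The transcripts most like ap_15570 had few or no counts in most trees. They were ap_90160 (r = 0.96), ap_90071 (r = 0.94) and ap_12805 (r = 0.92), none of them with an annotation here. Transcript ap_90160 held 9.19 and 8.14 CPM in bluish trees 5 and 1, with 9.05 CPM in green tree 1, then 0.347 CPM in bluish tree 4 with 0.595 CPM in green tree 4, and had 0 counts in the other 7 trees. Transcript ap_12805 had counts in those 5 trees and 0 counts in the other 7, with 8.40, 4.86 and 11.9 CPM in bluish trees 1 and 5 and green tree 1. A count of 0 in 1 or more trees was found for 288 of the 23352 tested transcripts, and 2 of them, ap_90160 and ap_12805, had this set of trees. Transcript ap_90071 stood at 13.6 and 10.7 CPM in bluish trees 5 and 1, with 14.7 CPM in green tree 1, and reached 0.886 CPM at most in the other 9. XTH ap_15570 itself had between 35 and 605 counts in every library, so it was never at 0, and its 3 highest libraries were these same 3.

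Transcripts with best database hits in green algae (15) and in *Carpinus fangiana* (47), which the study's table lists as higher in green trees, were set beside the 3 wall transcripts. Colour-centred r was positive with ap_2740 for 0 of the 15 and 0 of the 47, with ap_15570 for 13 of the 15 and 45 of the 47, and with the expansin for 9 of the 15 and 29 of the 47. Over all tested transcripts the positive share was 51.8% with ap_2740, 50.2% with ap_15570 and 52.2% with the expansin. Their summed levels were 31.0 to 93.3 CPM and 34.2 to 98.5 CPM in bluish trees, and 37.0 to 369 CPM and 47.2 to 449 CPM in green trees, highest in green tree 4. Median r was -0.34 and -0.31 with ap_2740, 0.29 and 0.25 with ap_15570 and 0.050 and 0.047 with the expansin. The highest r with ap_15570 was 0.440 and 0.476, under the 95th percentile of all tested transcripts (0.485). With ap_2740 the lowest r was -0.52 and -0.60, where the 5th percentile was -0.59. Transcripts of the same list may vary together, so their counts are not separate chances. The part of these transcripts in the results was not tested.

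**Figure D4:**
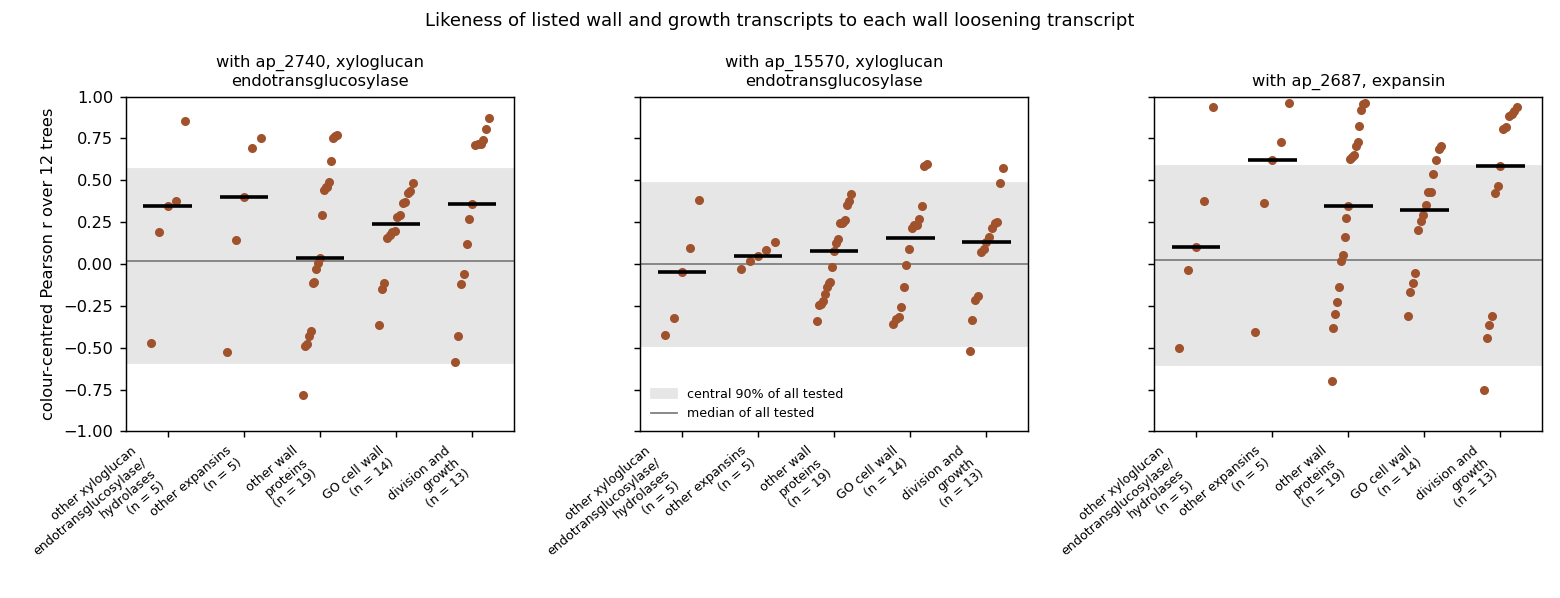
Colour-centred Pearson r over 12 trees (vertical axis) of each listed transcript with ap_2740, ap_15570 and ap_2687, by list (horizontal axis), with black bars at the list medians, a grey line at the median of all tested transcripts and a grey band over their central 90%. Values of at least 0.7 are found with ap_2740 and ap_2687, most often in the growth list (6 of 13 for each), and 0 times with ap_15570.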

How the data were processed

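The deposited values of the needle libraries are raw counts per assembled transcript. The authors trimmed paired reads with SeqTrimBB, assembled them with Trinity, reduced redundancy with CD-HIT-EST, mapped them with BWA MEM and counted with sam2counts. The deposited extraction text describes maritime pine roots, whereas the labels and paper give needles, which were taken as the tissue.

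The filter kept transcripts that reached 2 CPM in 2 or more libraries, and colour was tested with edgeR 4.0.16 (limma 3.58.1, R 4.3.3) by TMM and the quasi-likelihood test, Benjamini-Hochberg adjusted. Log2 CPM had a prior count of 2. Correlations were permuted exactly within colours (Python 3.11.15, numpy 2.4.6, pandas 2.3.3, scipy 1.17.1), and plots were drawn with matplotlib 3.10.9. Both steps were tested on simulated data. Columns of the authors' own comparison were not used. Alternatives were DESeq2 1.42.0, edgeR's exact test, other scaling, filters, prior counts and ranks, a tree number block and left-out libraries.

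Named were the 3 transcripts, 5 XTHs, 5 expansins, ap_8387 and, for each of the 3, the 3 most alike transcripts. The growth transcripts and wall proteins named were selected with their values in view. The members and lists were chosen with earlier results of these data known. Lists came from shortened annotation tables. Same-colour libraries gave chi-square values of 38.5 to 108 per degree of freedom against each other, so none was a copy. No transcript lengths were used, so levels of different transcripts are not compared.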

Additional observations from a re-analysis of the deposited data

Results flagged for a closer look

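In 6 of 28 groups of 6 trees (14 XTH, expansin and related transcripts in each colour), the highest tree stood apart from the rest by Dixon's criterion. Chance meets this criterion in about 1 in 20 groups when both ends are counted. Over all tested transcripts 6.71% of the bluish and 7.06% of the green groups met it at either end, and 5.03% and 5.43% at the high end. Green tree 1 was that tree in 5 of the 6, where 1.01% of all tested transcripts had green tree 1 stand apart as the highest green tree. These groups are not separate chances, because several of the transcripts vary together, and ap_2740, ap_15570 and ap_2687 reached the filter's 2 CPM in no other green tree. It held 2.19 CPM of XTH ap_2740 (next green tree 0.242 CPM), 5.60 CPM of XTH ap_15570 (next 1.41 CPM), 3.12 CPM of the expansin ap_2687 (next 1.15 CPM), 13.1 CPM of XTH ap_2828 (next 0.680 CPM) and 2.43 CPM of the expansin ap_34918 (next 0.983 CPM). The XTH ap_4324 was at 23.7 CPM in green tree 2, with the next green tree at 11.2 CPM. Among bluish trees 0 of the 14 groups met the criterion.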

How the results depend on the processing

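The number of DE transcripts was 1 in the edgeR quasi-likelihood fit, 22 with DESeq2, 453 with edgeR's exact test and a common dispersion, 0 with the tree number as a block and 1 to 2 with single libraries left out. The logFC was 0.46 to 3.70 for ap_2740, 0.55 to 2.07 for ap_15570 and 0.30 to 1.77 for ap_2687 with single libraries left out, and it kept its sign under other scaling, no filter, DESeq2 and the exact test. At least 2 CPM in 6 or more libraries was reached by none of the 3, so that filter gave them no value. For ap_2740 and ap_2687 the colour-centred correlation was 0.57 by Spearman's rho, 0.62 without the 2 trees farthest from the median, 0.66 with the tree number as a block (exact permutation, adjusted p = 0.388), 0.45 without bluish tree 2 and green tree 1 together, which was chosen after seeing the data (adjusted p = 0.542, exact permutation), and 0.66 to 0.85 with single libraries left out, of which 9 of 12 kept the call. Linear CPM, a prior count of 0.5 and other scaling kept it. With single libraries left out, the colour-centred r ran from -0.46 to 0.45 for ap_2740 and ap_15570 and from -0.29 to 0.44 for ap_15570 and ap_2687. Within bluish trees r then ran from -0.93 to -0.40 for ap_2740 and ap_15570 and 0.79 to 0.98 for ap_2740 and ap_2687. For ap_15570 and ap_2687 it ran from -0.81 to -0.16. Within green trees the 3 pairs ran from -0.29 to 0.84, 0.11 to 0.85 and 0.25 to 0.89 in that order. Values lay outside several of these ranges without the 2 trees of a colour farthest from the median of the pair's first transcript. In the same order of pairs, r was then -0.14, 0.16 and -0.14 over 4 bluish trees. Over 4 green trees it was -0.42, 0.64 and -0.92. Under the tree number block the logFC was 2.98 for ap_2740, 1.26 for ap_15570 and 0.90 for ap_2687. Same-numbered trees correlated at -0.136 to 0.109 and 3 of 12 trees were most like the tree of their own number, so the numbers did not pair the trees. Depth limited ap_2740 most, with 16 to 224 counts in bluish trees and 0 to 170 in green trees. The causes of these shifts were not tested.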

Other observations

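Other wall proteins were looked at in the same way, from 19 transcripts of the study's table that is ranked by the colour contrast. With the expansin ap_2687, 6 of the 19 had a colour-centred r of at least 0.7, with ap_2740 3 of the 19, and with ap_15570 0 of the 19. Beside glucosidases ap_2927 and ap_70278 these 6 held ap_14977, annotated as a pollen Ole e 1 allergen and extensin family protein (r = 0.92 with the expansin), and the fasciclin-like arabinogalactan protein ap_12562, of a family found at the cell surface (r = 0.83). Transcript ap_14977 stood at 3.78 and 2.26 CPM in bluish trees 2 and 6, with 3.62 CPM in green tree 1, and at 0 to 0.646 CPM in the other 9 trees. The cellulose synthases ap_86459 and ap_88208, which make the microfibrils themselves, had r = -0.11 and -0.48 with ap_2740 and 0.056 and -0.38 with the expansin. The cellulose synthase-like ap_90101 ran against ap_2740 (r = -0.78) and against the expansin (r = -0.70).

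A further list was not ranked by colour, namely 34 transcripts given under the cell wall GO term, of which 14 passed the filter. Of these, 10 had a positive and 4 a negative logFC, where 49.1% of all tested transcripts were positive, and the median was 0.05. In the quasi-likelihood test of edgeR 0 of the 14 were called DE, where 0.00428% of all transcripts were. Their median colour-centred r was 0.24 with ap_2740, 0.15 with ap_15570 and 0.32 with the expansin, and 1 of the 14 reached 0.7, ap_13548 with the expansin (r = 0.70). In 0 of the 14 were bluish trees 2 and 6 and green tree 1 the 3 highest trees.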
